A study of Mus musculus with 3 samples.

Results

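The genes described here encode the proteins that carry the signal of Toll-like receptors from the membrane to the kinases of the cytoplasm: 4 adaptors (Myd88, Tirap, Ticam1, Ticam2), 4 members of the IRAK kinase family (Irak1, Irak2, Irak3, Irak4) and 2 TRAF proteins (Traf6, Traf3). They were chosen by symbol, and all 10 were found, each with 1 identifier, among the 55536 gene rows of the deposited tables. RNA came from mouse bone-marrow-derived macrophages of strain C57BL/6J, which are grown in culture from marrow precursors. The cells were treated with Lipid A, the lipopolysaccharide moiety to which Tlr4 responds, at 100 ng/ml for 20 min. Ribosomal RNA was removed from the RNA of the cytosolic fraction before sequencing, and all 3 libraries, numbered as replicates 1 to 3, belong to this 1 condition. The labels give no age or sex, name no genetic alteration, and assign the same donor identifier to every library. The SDs and p-values below measure only how far these libraries differ, and that may be technical in part. Untreated cells are not analysed here, so no gene can be called induced or repressed by Lipid A.

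Toll-like receptors and receptors of the interleukin-1 family share a cytoplasmic domain, the TIR domain, through which they recruit TIR adaptors. MyD88 assembles with IRAK4 and then IRAK1 or IRAK2 into a complex that passes the signal to TRAF6, a ubiquitin ligase that activates the kinase TAK1 and the IKK complex. TIRAP brings MyD88 to Tlr4 and Tlr2 at the membrane. TRIF, the product of Ticam1, is brought to Tlr4 by TRAM, the product of Ticam2, and uses TRAF3 to reach the kinase TBK1 and the factor IRF3. IRAK-M, the product of Irak3, restrains the MyD88 branch.

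Levels are in TPM, a share of all transcripts that divides by transcript length and so allows genes to be compared. Detection required at least 1 TPM in each of the 3 libraries. Protein-coding genes of the nuclear genome held 25.0%, 22.0% and 19.6% of all TPM in replicates 1, 2 and 3, the rest lying in other genes such as small structural RNAs. This lowers the TPM of mRNAs in replicate 3 relative to replicate 1. Values are therefore also given as rescaled TPM, in which these protein-coding genes sum to 1000000 in each library. The gene tables held 27392626, 81597761 and 37176950 expected counts in the same order. Each member had between 521 and 7362 expected counts in a library, so that counting error alone gave a coefficient of variation of at most 4.38%. All 8 macrophage markers were detected. No marker of T and NK cells, B cells, neutrophils, dendritic cells, mast cells, fibroblasts or erythroid cells was, and their lists summed to at most 1.05 TPM. Among 3 endothelial markers only Kdr was detected, at 2.36 TPM. The nuclear RNA Malat1 stood at 359, 248 and 763 TPM in replicates 1, 2 and 3, so replicate 3 held the most of it.

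Messages of Irak1, Irak2 and Traf3 exist in forms that differ by short coding segments. Of these segments 3 are shown first, with Myd88 exon 2, because they set which protein a message encodes. All were read from the GENCODE M21 transcripts on mm10 and are written in the sense of the mRNA, with capitals marking the segment that one form has and the other lacks. In Irak1, on the minus strand of the X chromosome, exon 5 starts at either of 2 splice acceptors 3 bases apart. The extra codon lies at chrX:74022662-74022664, and the pair of forms reads:
Irak1-206: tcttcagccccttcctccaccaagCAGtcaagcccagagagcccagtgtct
Irak1-204: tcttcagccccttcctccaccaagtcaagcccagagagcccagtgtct
In Irak2, on the plus strand, exon 3 (chr6:113665703-113665846) has 144 bases, a multiple of 3, so the reading frame continues when it is left out. It begins inside a codon and holds 47 whole codons:
Irak2-201: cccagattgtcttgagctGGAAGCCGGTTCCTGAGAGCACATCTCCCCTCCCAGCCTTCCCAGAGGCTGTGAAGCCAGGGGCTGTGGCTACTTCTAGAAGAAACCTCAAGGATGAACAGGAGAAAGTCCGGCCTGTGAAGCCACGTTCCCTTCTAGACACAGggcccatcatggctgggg
Irak2-202: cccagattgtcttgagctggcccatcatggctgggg
In Traf3, also on the plus strand, exon 8 (chr12:111251130-111251204) has 75 bases, or 25 whole codons:
Traf3-201: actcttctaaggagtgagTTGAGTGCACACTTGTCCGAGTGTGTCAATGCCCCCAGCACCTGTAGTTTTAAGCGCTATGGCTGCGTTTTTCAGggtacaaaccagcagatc
Traf3-203: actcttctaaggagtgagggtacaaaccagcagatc
Myd88 exon 2 (chr9:119338576-119338710, minus strand) is the segment missing from a known short form of MyD88 that does not recruit IRAK4. Its 135 bases, which begin inside a codon and hold 44 whole codons, are in capitals:
Myd88-201: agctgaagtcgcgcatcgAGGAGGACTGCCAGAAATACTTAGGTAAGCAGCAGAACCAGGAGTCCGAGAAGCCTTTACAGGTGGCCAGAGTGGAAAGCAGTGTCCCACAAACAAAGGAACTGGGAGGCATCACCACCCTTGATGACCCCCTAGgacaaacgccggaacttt

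All 10 genes were detected in every library, against 40.6% of the 21938 protein-coding genes (8910 genes). Their levels were those of ordinary macrophage mRNAs: the median member had a mean of 7.20 TPM, beside 6.96 TPM for the median detected protein-coding gene, or 32.3 against 31.4 rescaled TPM. In the second transcript table, which the authors derived directly from the reads, 8 of 10 passed the same limit without rescaling. Tirap (0.730 TPM) and Traf3 (0.935 TPM) fell short of it there in replicate 3. All 10 passed once that table was rescaled, but 1 rescaled TPM is a far looser limit. Nuclear protein-coding genes held only 10.5%, 8.92% and 6.71% of the TPM of that table in replicates 1, 2 and 3, so rescaling raised every value. The shares of all protein-coding genes that passed in that table are not given here. The highest member stood 7.44 times above the lowest.

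**Figure D1:**
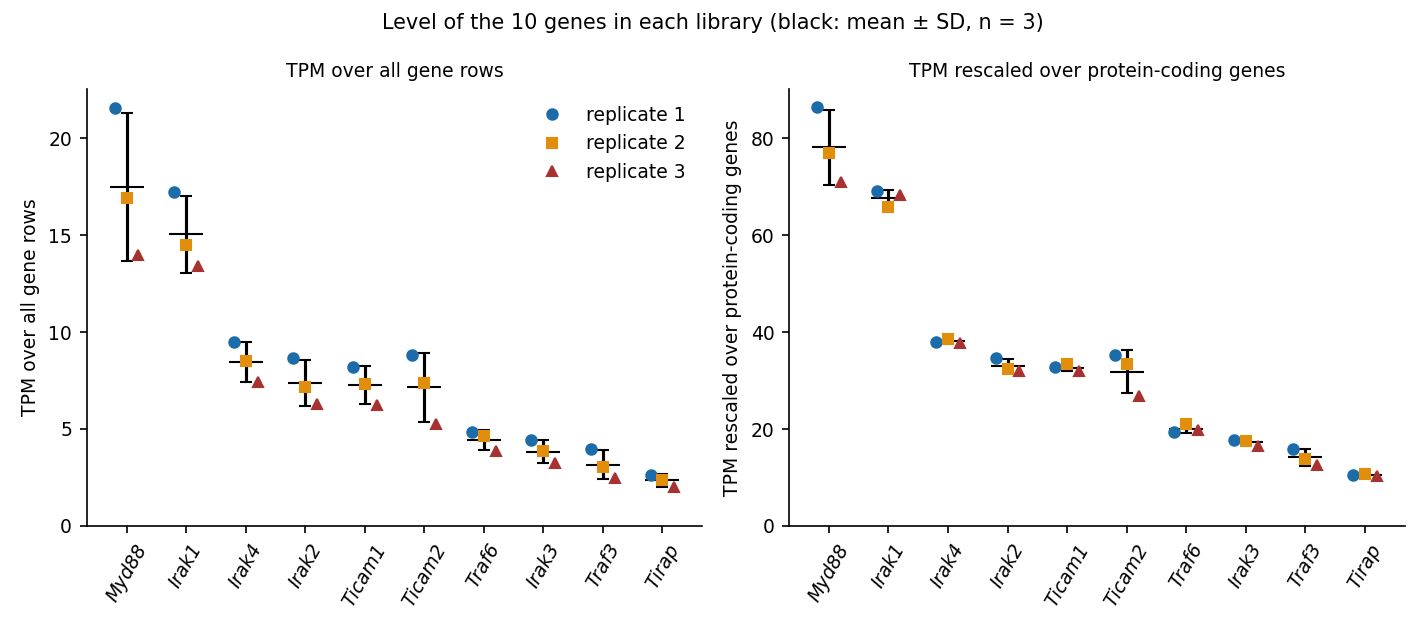
Level of each of the 10 genes in each library, as TPM over all gene rows (left) and as TPM rescaled over nuclear protein-coding genes (right); colours and shapes mark replicates, black marks the mean and SD of 3 libraries. On the left every gene is highest in replicate 1, and on the right 7 genes draw together while Myd88, Ticam2 and Traf3 keep a wider range.

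Among the adaptors, Myd88 led. Its level was 21.6, 16.9 and 13.9 TPM in replicates 1, 2 and 3, a mean of 17.5 ± 3.83 TPM (SD, n = 3) that placed it above 77.4% of detected protein-coding genes. Rescaling left the same library highest and the same lowest, at 86.3, 76.9 and 71.0. The gene lies at chr9:119335934-119341411, and 290 of its exonic bases, 11.3% of its exons, overlap Acaa1a on the opposite strand. Reads from the shared bases cannot be told apart, since no source used here states whether the libraries keep strand.

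Tirap, the bridge between Tlr4 and MyD88, was the lowest of the 10. It read 2.65, 2.38 and 2.01 TPM in replicates 1, 2 and 3, with a mean of 2.35 ± 0.321 TPM (SD, n = 3). In rescaled TPM its values were 10.6, 10.8 and 10.2, so the libraries came within 1.06 times of each other. The gene lies at chr9:35184551-35200291 on the minus strand, and shares 446 exonic bases with the antisense gene Gm39318, which had at most 2.27 expected counts in a library. Myd88 exceeded Tirap by 2.83 ± 0.13 log2 units within a library (SD, n = 3), a 7.11-fold difference with the same sign in all 3 libraries.

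Ticam1 and Ticam2, the pair that forms the TRIF branch, had like levels. Ticam1 read 8.20, 7.33 and 6.26 TPM in replicates 1, 2 and 3 (mean 7.26 ± 0.972, SD, n = 3), and Ticam2 read 8.80, 7.35 and 5.28 TPM (mean 7.14 ± 1.77, SD, n = 3). The log2 ratio of Ticam1 to Ticam2 was -0.10, -0.0039 and 0.24 in the 3 libraries, with a mean of 0.05 ± 0.18 (SD, n = 3). That difference is smaller than its spread between libraries, and without replicate 3 its sign turned, to -0.052. Ticam1 lies at chr17:56269319-56276786, on the minus strand. Rescaled, Ticam1 stayed between 31.9 and 33.3, whereas Ticam2 read 35.3, 33.4 and 26.9. The low value of Ticam2 is that of replicate 3, the library with the most Malat1; what part that library plays in it was not tested. Ticam2 shares 838 exonic bases, 14.5% of its exons, with Tmed7 on the same strand, so part of the reads of these genes was divided between them by the estimate. Tmed7, which encodes a transport protein of the secretory route, stood at 28.9, 22.9 and 22.3 TPM. Myd88 exceeded Ticam1 by 1.24 ± 0.13 log2 units (SD, n = 3), or 2.36 times, with the same sign in every library.

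Irak1 had the highest level of the IRAK family. It read 17.2, 14.5 and 13.4 TPM in replicates 1, 2 and 3 (mean 15.0 ± 1.98, SD, n = 3), and 69.0, 65.7 and 68.2 in rescaled TPM. It lies at chrX:74013914-74023918. Irak4, the kinase that acts first in the complex with MyD88, read 9.48, 8.48 and 7.43 TPM (mean 8.46 ± 1.03, SD, n = 3). In rescaled TPM Irak4 varied least of the 10, at 38.0, 38.6 and 37.8, a coefficient of variation of 1.01%. That rank was not shared by the second table, in which its coefficient of variation was 4.46% and those of Irak3, Ticam1, Irak1 and Tirap were smaller, nor by TMM-normalised log2 CPM, in which Irak1 varied less. It lies at chr15:94543643-94581815, on the plus strand, and its exons share 395 bases with Twf1 on the opposite strand. Irak2, which prolongs signalling by the complex, read 8.64, 7.14 and 6.29 TPM (mean 7.36 ± 1.19, SD, n = 3), and 34.6, 32.5 and 32.0 rescaled. It lies at chr6:113638467-113695026. Irak3, the restraining member, was the lowest of the family at 4.41, 3.84 and 3.25 TPM (mean 3.83 ± 0.580, SD, n = 3), or 17.7, 17.5 and 16.5 rescaled. It lies at chr10:120141648-120202130 on the minus strand and shares 192 exonic bases with Tmbim4 on the opposite strand.

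The kinases kept similar proportions in the 3 libraries. Irak1 exceeded Irak4 by 0.82 ± 0.05 log2 units (SD, n = 3), or 1.77 times, and Irak2 by 1.02 ± 0.05, or 2.03 times. Irak3 lay 1.13 log2 units under Irak4 (ratio -1.13 ± 0.04, SD, n = 3), so that Irak4 was 2.18 times as abundant. Against Irak1 the log2 ratio of Irak3 was -1.95 ± 0.06 (SD, n = 3), which makes Irak1 3.85 times as abundant. The ratio of Irak1 to Irak4 was 16.4 times as large as its SD, the others among these 4 were 21.3 to 31.1 times as large, and all 3 libraries shared the sign of each. Such a multiple also grows with the distance between the genes. In the second transcript table the log2 ratios were 0.69 ± 0.09 (Irak1 to Irak4) and 0.93 ± 0.06 (Irak1 to Irak2, SD, n = 3). Those of Irak3 were -1.23 ± 0.08 to Irak4 and -1.92 ± 0.02 to Irak1 (SD, n = 3).

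Traf6, the ubiquitin ligase of the MyD88 branch, read 4.86, 4.63 and 3.87 TPM (mean 4.45 ± 0.518, SD, n = 3), and 19.5, 21.05 and 19.7 in rescaled TPM. The gene lies on the plus strand at chr2:101678429-101701669. Traf3, which serves the TRIF branch, read 3.98, 3.03 and 2.49 TPM (mean 3.17 ± 0.754, SD, n = 3), and 15.9, 13.8 and 12.7 rescaled. Its highest library was replicate 1 on both scales, and it lies at chr12:111166370-111267153. Traf6 exceeded Traf3 by 0.50 ± 0.19 log2 units (SD, n = 3), with the same sign in each library. In the second transcript table that difference was 0.18 ± 0.25 log2 units (SD, n = 3), within its spread.

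In descending order the genes ran Myd88, Irak1, Irak4, Irak2, Ticam1, Ticam2, Traf6, Irak3, Traf3, Tirap. Of the 45 pairs of members, 42 stood in the same order in all 3 libraries. Among neighbours in that order, Irak2 and Ticam1 differed by 0.01 ± 0.06 log2 units (SD, n = 3) and Ticam1 and Ticam2 by 0.05 ± 0.18, both within the spread. Myd88 exceeded its neighbour Irak1 by 0.20 ± 0.13 log2 units (SD, n = 3), with 0.06 in replicate 3. In the second transcript table that difference was 0.11 ± 0.14, within its spread, and the log2 ratio of Irak3 to Traf3 was 0.03 ± 0.20, also within its spread. In all, 15 different pairs were tested with an exact two-sided sign-flip test over libraries, whose smallest possible p with 3 libraries is 0.25. That p was reached by 13 pairs (Benjamini-Hochberg adjusted p = 0.288, exact sign-flip test), so none can pass a threshold in this design, and the SD is the guide to size.

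**Figure D2:**
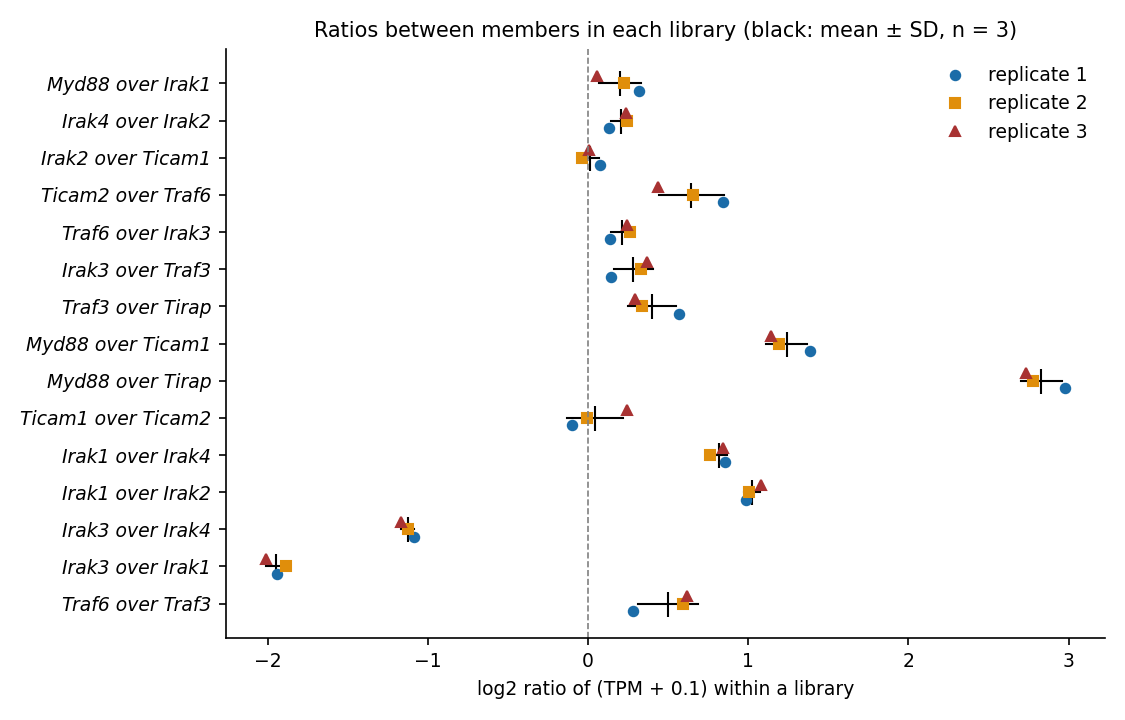
Log2 ratio of (TPM + 0.1) between members within each library, for neighbours in the order of levels and for chosen pairs; symbols are replicates, the black tick and line are mean and SD of 3 libraries, and the dashed line is a ratio of 1. The ratios among the kinases cluster tightly, while Irak2 over Ticam1 and Ticam1 over Ticam2 straddle 0.

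Because each TPM carries the scaling of its library, the spread was read on both scales. In TPM all 10 members were highest in replicate 1 and lowest in replicate 3 with replicate 2 between them, a pattern shown by 66.4% of detected protein-coding genes. After rescaling 5 of 10 members showed it, against 16.3% of those genes. These 5 were Myd88, Irak2, Ticam2, Irak3 and Traf3. In the second transcript table, rescaled, only Myd88, Ticam2 and Traf3 showed it. There Irak2 read 37.3, 32.9 and 35.9 and Irak3 17.54, 16.96 and 17.03 in replicates 1, 2 and 3. The share of all genes with this order in that table is not given here. The SD of log2(TPM + 1) was 0.174 for the median member and 0.157 for the median of the 9160 protein-coding genes that averaged 1 TPM or above. With rescaled TPM the medians were 0.0527 and 0.0965, and 7 of 10 members lay under the median of the genes. The median member thus lay above the median gene in TPM and under it in rescaled TPM, while in TPM 3 members (Tirap, Traf6, Irak4) lay under it.

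On the rescaled scale the members fell into steadier and less steady genes. Irak4 had an SD of 0.0141 on the log2 scale, smaller than that of all but 1.72% of genes. Ticam1, Irak1, Tirap, Irak3, Traf6 and Irak2 had SDs from 0.0319 to 0.0581, which placed them above 8.60% to 24.2% of genes. Myd88 (0.140), Traf3 (0.156) and Ticam2 (0.201) were the exceptions, at percentiles 70.1, 75.5 and 85.8. Their coefficients of variation were 9.89%, 11.8% and 13.8%, each beyond the counting error of at most 3.03% for these genes. Without replicate 3 the 3 most variable members were Myd88, Traf3 and Traf6, so the place of Ticam2 among them rested on that library. The edgeR count model estimated a coefficient of variation beyond counting error with information shared between genes. Its value for a member is therefore not that gene's own spread alone. It was 8.16% for the median member and 10.4% for the median of 12430 genes, and 9 of 10 members lay under the latter. Ticam2, at 11.8%, was the exception. Myd88 (9.67%) and Traf3 (9.80%) lay under the median gene in this model, but above it on the rescaled scale.

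**Figure D3:**
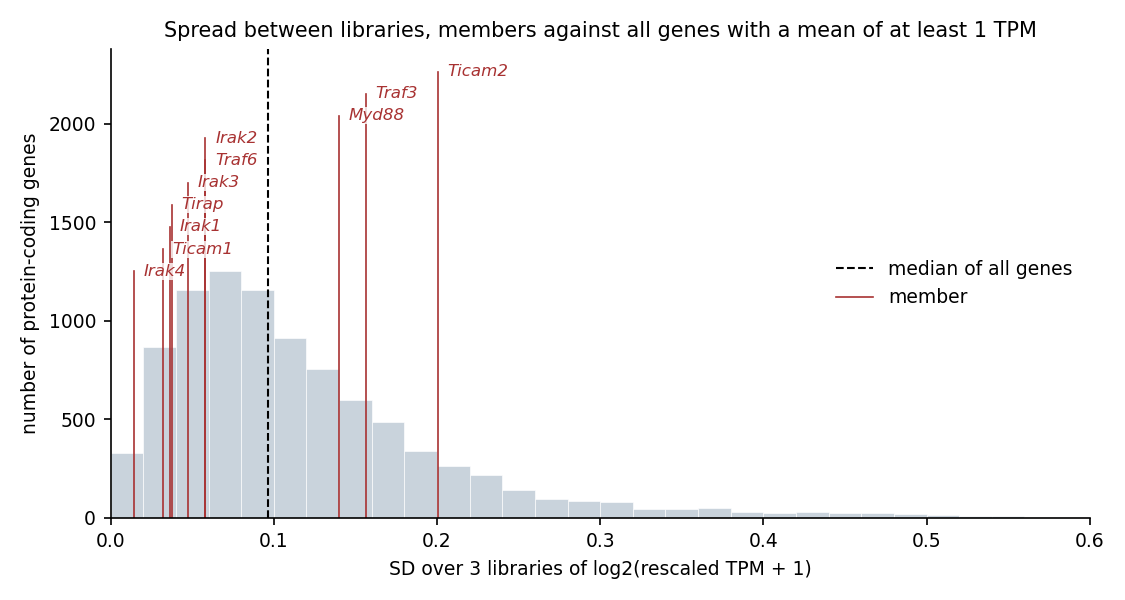
SD over 3 libraries of log2(rescaled TPM + 1) for 9160 protein-coding genes averaging 1 TPM or above (grey, number of genes per bin) and for the 10 members (red lines); the dashed line is the median of all genes, and 96 genes lie beyond the end of the axis at 0.6. Of the members, 7 sit left of the dashed line, and Myd88, Traf3 and Ticam2 sit right of it.

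For Ticam2, the most variable member, the genes with the nearest pattern over the 3 libraries were Abcb1b, Dkc1 and Pih1d1. Their centred log2 rescaled TPM differed from that of Ticam2 by a root mean square of 0.0044, 0.0068 and 0.0073. With only 3 libraries such likeness is common: 860 of 9159 genes (9.39%) lay within 0.1 of Ticam2.

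The transcript tables show which forms of the messages these levels stand for. A single protein-coding transcript held over 90% of the TPM of 6 genes in the first transcript table, as a mean of 3 libraries. The shares were 98.5% ± 0.625 for Myd88-201, 99.3% ± 0.368 for Ticam2-201, 98.1% ± 1.10 for Irak3-201, 95.0% ± 2.85 for Irak4-201 and 93.9% ± 0.537 for Traf6-201 (SD, n = 3), and Ticam1 has a single annotated transcript. The second Traf6 transcript, Traf6-202, has no coding sequence in the annotation and held 5.77% ± 0.165 (SD, n = 3), and Irak4-202, whose coding length of 1359 bases is close to the 1377 of Irak4-201, held 3.21% ± 1.55 (SD, n = 3). Tirap-201 held 79.6% ± 0.274 and Tirap-203 17.5% ± 0.846 (SD, n = 3). Both have a coding length of 747 bases, as do the other Tirap forms above 1%. Irak2-201 held 78.7% ± 3.09 and Traf3-201 72.7% ± 2.99 (SD, n = 3). The second table named the same leading transcript for every gene, but 5 genes passed 90% there, since Irak4-201 held 85.7% ± 5.74 (SD, n = 3). Shares were also lower for Irak1-206 (35.7% ± 4.88), Traf3-201 (56.5% ± 6.26), Tirap-201 (69.3% ± 3.39), Irak2-201 (71.8% ± 2.92) and Irak3-201 (91.2% ± 6.79). Tirap-203 stood at 26.7% ± 3.80 (SD, n = 3) in that table.

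No annotated Myd88 transcript lacks exon 2: 0 of its 3 transcripts skip the capitalised segment shown above. The short form was therefore not measured, and the share of Myd88-201 says nothing about it. The rest of the TPM of Myd88 lay in Myd88-203, a retained-intron transcript, at 1.48%, 0.828% and 2.08% in replicates 1, 2 and 3.

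Irak1 was the most divided member. Of 22 annotated transcripts, 18 had a TPM above 0 in the first table. Irak1-206 held 41.1%, 50.5% and 48.6% in replicates 1, 2 and 3, and Irak1-204 held 29.9%, 25.2% and 26.6%. These leading forms differ by the single codon CAG shown above. Over all transcripts that span the site, those with the codon made up 64.4%, 68.6% and 68.3% of the TPM, a mean of 67.1% ± 2.33 (SD, n = 3). The second table gave 67.6% ± 2.45 (SD, n = 3), which differs from the first by less than the spread between libraries. Irak1-201, the only form with a further exon of 117 bases (39 codons, chrX:74017901-74018017), held 5.21% ± 0.751 (SD, n = 3) of the TPM that spans the exon. That value was 12.7% ± 1.54 in the second table, so the tables disagree on its size.

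Irak2 exon 3 was included in 88.9%, 91.1% and 86.3% of the TPM of transcripts that span it, a mean of 88.8% ± 2.42 (SD, n = 3), and in 92.8% ± 0.489 in the second table. The form without it, Irak2-202, held 10.3% ± 2.85 (SD, n = 3) of the TPM of the gene, and 5.86% ± 0.448 in the second table. Irak2-203, which lacks exon 2 in place of exon 3, was listed at 0 in the first table in every library, and made up 0.491% of the spanning TPM in the second. Traf3 exon 8 was included in 89.4%, 93.1% and 90.1% of the spanning TPM, a mean of 90.8% ± 1.98 (SD, n = 3). The second table gave 92.3% ± 1.67 (SD, n = 3), again within the spread. A further 20.0% ± 1.80 (SD, n = 3) of the TPM of Traf3 lay in Traf3-204, a transcript of 645 bases, which held 30.9% ± 1.30 in the second table. Because TPM divides by length, its share in the first table rested on few reads. These were 18.3, 40.7 and 16.1 of the 1089, 2821 and 1101 expected counts of Traf3 in replicates 1, 2 and 3.

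**Figure D4:**
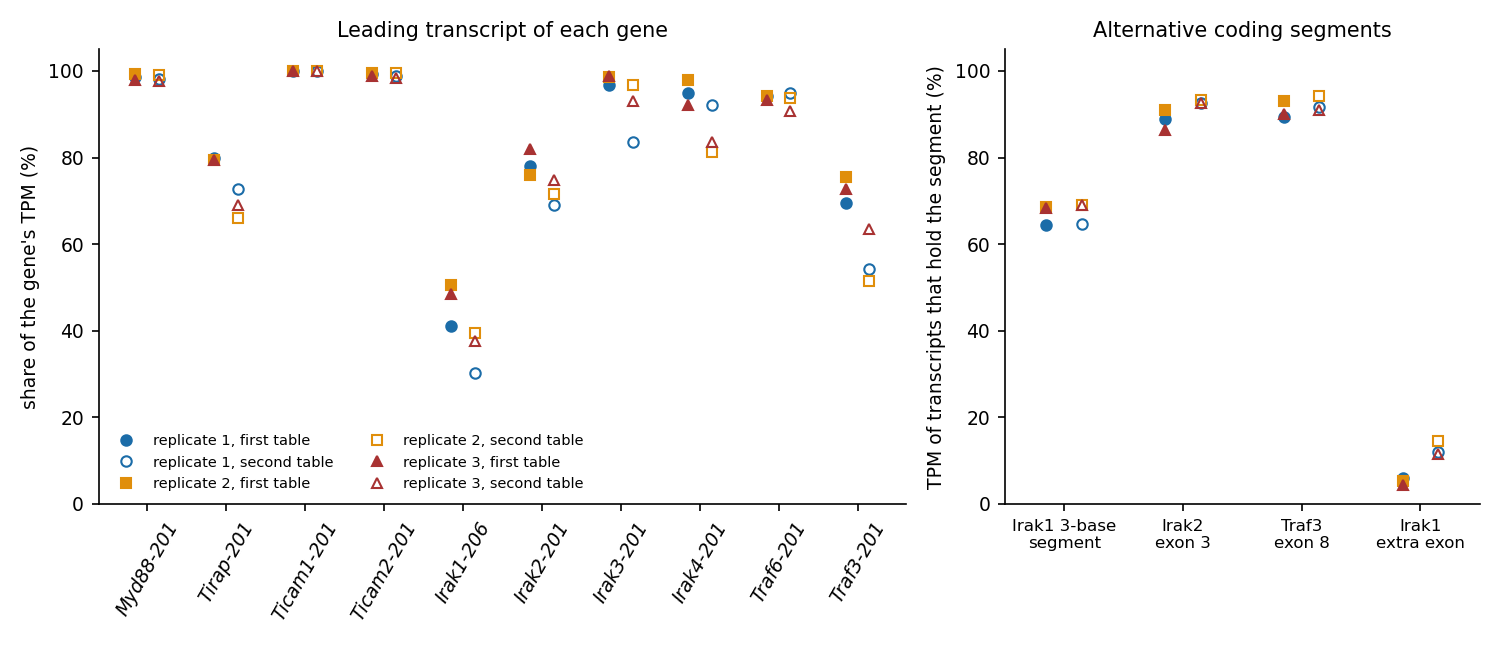
Left, share of each gene's TPM in its leading transcript; right, share of the spanning TPM in transcripts that hold each alternative coding segment. Filled symbols are the first transcript table and open symbols the second, with 1 symbol per replicate; the segment shares of Irak1 (3 bases) and Traf3 lie close in both tables, while the leading shares of Irak1, Tirap and Traf3 are lower in the second.

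Retained-intron transcripts are annotated for 7 of the 10 genes. Pooled over the members they took 5.12%, 4.51% and 5.53% of the TPM in replicates 1, 2 and 3, beside 4.45%, 4.53% and 5.16% for 5646 protein-coding genes with such a transcript. The second table gave 8.28%, 9.37% and 9.70% for the members and 5.66%, 5.38% and 6.28% for those genes. There the pooled share of the members was above the background in every library. The median of the 7 members was 5.80%, 14.2% and 3.50% there, under the median gene in replicate 3. In the first table it was 2.64%, 0.408% and 2.08%, under the median gene in replicates 2 and 3. In replicate 2, Irak4-203 and Traf3-205 held 17.2% and 14.2% of their genes in the second table, but 0 in the first. In Irak1 the shares were 12.9%, 10.8% and 16.2%, lowest and highest in the same libraries as Malat1, and 16.7%, 14.9% and 22.0% in the second table, again so. The median of the 5646 genes had the same order, at 1.40%, 1.30% and 2.88%, and 2.53%, 2.17% and 4.71% in the second table, so this order is not particular to Irak1. In Irak2 the retained-intron shares were 9.28%, 14.4% and 2.38%, but 17.3%, 16.6% and 9.27% in the second table. Most of the first-table share in replicates 1 and 2 lay in Irak2-207, a transcript of 573 bases. It held 11.95, 55.06 and 0 of the 1151, 3001 and 1414 expected counts of Irak2 in replicates 1, 2 and 3. Because TPM divides by length, these first-table shares rested on few reads. Replicate 3 was lowest for Irak2 in both tables, and the library that was highest differed between them. The part that nuclear RNA plays in these shares was not tested.

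Upstream of the adaptors, 12 of 16 Toll-like receptors and co-receptors were detected. Cd36 (116 ± 44.2 TPM, SD, n = 3), Cd14 (100.2 ± 26.6), which hands lipopolysaccharide to Tlr4, and Tlr13 (59.1 ± 7.01), a sensor of bacterial ribosomal RNA, were highest. The lead of Cd36 over Cd14 rested on replicate 3. Without that library the mean of Cd36 was 90.4 TPM and that of Cd14 was 115 TPM. Tlr5, Lbp, Tlr11 and Tlr12 were under the limit, at means of 0.707, 0.417, 0.050 and 0.040 TPM. The list's median was 13.5 TPM, above the 7.20 TPM of the adaptors, IRAKs and TRAFs. The other large group of receptors that use MyD88, those of the interleukin-1 family, had 0 of 6 genes detected. The highest were Il1rap (0.913 ± 0.076 TPM, SD, n = 3), Il1rl2 (0.627 ± 0.240) and Il18rap (0.167 ± 0.067). With rescaled TPM, Il1rap and Il1rl2 passed the limit of 1.

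Of proteins that resemble the members, Pik3ap1, which encodes the adaptor BCAP of TLR and PI3-kinase signalling, stood at 88.2 ± 6.24 TPM (SD, n = 3), 5.05 times the level of Myd88. Sarm1, the remaining TIR adaptor, read 0.01, 0.02 and 0.02 TPM in replicates 1, 2 and 3. Of 5 other TRAF genes 3 were detected: Traf7 (9.46 ± 0.925 TPM, SD, n = 3), Traf5 (3.45 ± 0.743) and Traf2 (2.69 ± 0.638). Traf1 read 1.97, 0.95 and 0.80 TPM and Traf4 0.06, 0.06 and 0.11, so Traf1 passed the limit only in replicate 1.

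Downstream, all 9 genes of the TAK1 and IKK module were detected, with a list median of 7.83 TPM. Ube2v1 (37.6 ± 5.10 TPM, SD, n = 3) and Ube2n (29.3 ± 5.54), the enzyme pair with which TRAF6 builds ubiquitin chains, were highest, followed by Tab2 (21.8 ± 3.41), which binds those chains. The 16 genes listed under the TRIF arm, not all of which are exclusive to that branch, were likewise all detected, with a list median of 10.2 TPM. Irf7 (47.3 ± 15.7 TPM, SD, n = 3) and Irf5 (35.2 ± 4.42), both transcription factors, and the protease Casp8 (19.2 ± 3.45) led this list. Of 16 regulators 12 were detected, led by Tmed7 (24.7 ± 3.66 TPM, SD, n = 3), Tollip (18.6 ± 1.67), which binds IRAK1, and Tnfaip3 (16.4 ± 9.76), the deubiquitinase A20. Tnfaip3 read 27.6, 9.33 and 12.4 TPM, so its place rested on replicate 1. Without that library its mean was 10.9 TPM, and in rescaled TPM Tnip1 (72.5) stood above it (72.0). Irak1bp1, Socs1, Sigirr and Peli3 were under the limit, at means of 0.890, 0.447, 0.400 and 0.357 TPM, and all 4 passed it after rescaling. In all, 53 of 70 pathway genes were detected, beside 40.6% of the 21938 protein-coding genes at the same limit. With rescaled TPM 62 were, and the share of all genes on that scale is not given here.

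**Figure D5:**
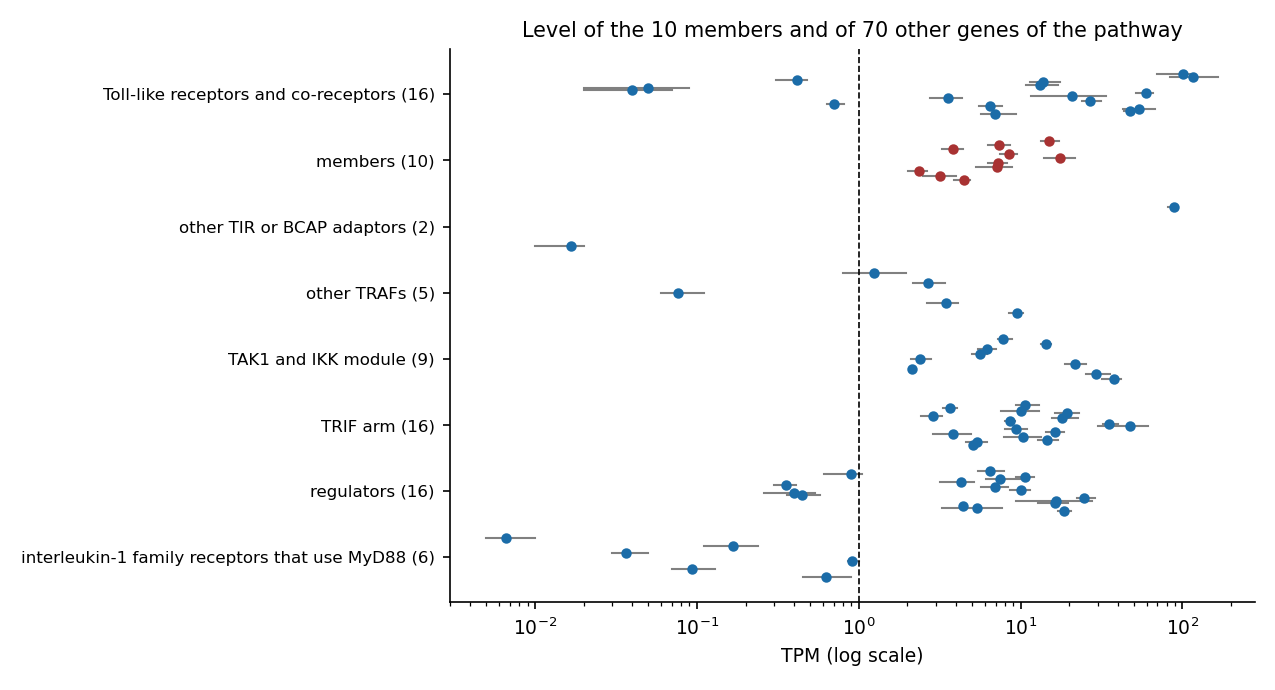
Mean TPM (points, log scale) of the 10 members in red and of 70 other pathway genes in blue, by list, with lines from the lowest to the highest of 3 libraries (drawn from 0.005 where a library is at 0) and a dashed line at the detection limit of 1 TPM. All members, the TAK1 and IKK module and the TRIF arm lie right of the limit, and the mean of every interleukin-1 family receptor lies left of it.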

How the data were processed

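RNA from 3 libraries of 1 group was used; each library's group and replicate number came from its labels. Per the file headers and the deposited notes, the authors made a gene table and a first transcript table from alignments to the transcriptome, and a second transcript table directly from the reads, on mm10 with GENCODE M21. No source used here names the tools. The deposited expected counts are estimated reads per gene, and the deposited TPM and FPKM are normalised for length and depth. The deposited isoform percent is a transcript's share of its gene; shares here were computed from TPM. Rows that name no gene held 0.108% to 0.402% of the counts and were left out.

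The members and all gene lists were chosen with earlier results of these data known. Named genes are the 10 members, the 3 highest of each pathway list, those under the limit where there were 5 or fewer, and the 3 genes nearest to the most variable member. With 1 group, no test between conditions was possible. Ratios used log2(TPM + 0.1) and an exact sign-flip test (scipy 1.17.1). For the count model, expected counts were rounded and filtered by filterByExpr (minimum count 10), then scaled by TMM (factors 1.04, 1.01 and 0.959) and passed to edgeR 4.0.16 (estimateDisp, intercept only); DESeq2 1.42.0 was an alternative. The count model was tested on simulated data. Other alternatives were detection limits, pseudocounts, minimum means, FPKM, posterior mean TPM, the second table, other normalisations, and leaving out each library. Protein sequences were not used here.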

Additional observations from a re-analysis of the deposited data

How the results depend on the processing

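All 10 members stayed detected without any 1 library, 8 of 10 in the second transcript table, and 6 of 10 at a limit of 5 TPM. The matching shares of all protein-coding genes are not given for these settings, so these counts describe the members only. The median member level was 14.3 as FPKM, 32.3 as rescaled TPM and 2.61 TPM in the second transcript table. The fixed ratios kept their direction in 63 of 64 recomputations, but many of these could not have turned it. Every fixed pair except Ticam1 over Ticam2 had the same sign in all 3 libraries, so leaving out 1 library could not reverse it. Another pseudocount or FPKM keeps the sign within a library. Posterior mean TPM and the second transcript table could have reversed a ratio, and neither did. The exception was Ticam1 over Ticam2, which ran from -0.052 to 0.119 when 1 library was left out and was negative without replicate 3. The median member spread (0.174) became 0.0527 on rescaled TPM, 0.0644 on TMM-normalised log2 CPM and 0.257 in the second table, and ran from 0.136 to 0.244 when 1 library was left out, highest without replicate 2. On rescaled TPM, leaving out 1 library, an alternative chosen after seeing the data, gave 0.0486 to 0.0518. The coefficient of variation of the median member (8.16%) was 8.95% with no filter beyond a total count above 0, 9.85% with library size only, and 8.47% to 9.76% when 1 library was left out. The median share of the leading transcript fell from 94.4% to 88.4% in the second table; the causes of these shifts were not tested. No paired analysis was possible because there is only 1 group. With 3 libraries an SD is itself imprecise, and the counting error of Tirap, the shallowest member, was up to 4.38%.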
